A study of Mus musculus with 7 samples.

Results

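Homing receptors for chemokines and lipids were followed in EML (erythroid-myeloid-lymphoid) cells, a multipotent blood progenitor line of the mouse whose name lists the lineages it can form. The 8 genes were Cxcr4, Ccr1, Ccr2, Ccr9, Cx3cr1, Cxcr2, S1pr1 and Cd44, taken by symbol from a table of 20142 symbols listed once, and each was found there. RNA had been sequenced from cells sorted on surface CD34, giving 4 libraries of negative and 3 of positive cells. All were sorted from Annexin V-negative (non-apoptotic) cells, no treatment is named, and the strain label of each library is C57BL/6. Tissue and age labels name bone marrow and a postnatal day, whereas the source label names the line, and for the negative cells the genotype label gives CD43 in place of the CD34 of the titles. The titles and the source label were followed. The labels do not say whether the libraries came from separate cultures, so the spread between them may be technical.

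Descriptions of the libraries carry numbers that cross the groups. Replicate 2 of both groups carries number 2, and replicate 1 carries 3 in CD34-negative and 3a in CD34-positive cells. What the letter stands for is not stated. CD34-positive replicate 3 carries number 4, and CD34-negative replicates 3 and 4 carry 4 and 4a, so 4 pairings of equal number can be made if the letters are left aside (the pair of 3 and 3a is called number 3 here), with CD34-positive replicate 3 used in both of the last pairings. The unit is FPKM (fragments scaled by transcript length and by the library's mapped fragments), and the number of fragments is unknown. Cd34 itself was at 147, 256 and 153 FPKM in CD34-positive replicates 1, 2 and 3 against 91.8, 19.3, 2.67 and 6.02 FPKM in replicates 1 to 4 of the negative cells, so CD34-negative replicate 1 stood nearest to the positive libraries. The 3 libraries numbered 4 and 4a held 2.2% to 4.0% of their FPKM in ribosomal protein genes, against 25.7% to 34.0% in the other 4, and 8.0% to 39.5% in genes named as microRNAs or small nucleolar RNAs, against at most 0.3%. In bulk RNA, fewer cells of a type and less RNA per cell cannot be told apart.

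Chemokine receptors are membrane receptors coupled to inhibitory G proteins, and cells move along gradients of the small proteins that bind them. Cxcr4 binds Cxcl12 made by marrow stroma and holds stem and progenitor cells in the marrow, whereas S1pr1 binds sphingosine 1-phosphate (S1P), a lipid that is abundant in blood and draws cells out of tissue. Cd44 is a receptor for the matrix sugar hyaluronan and serves adhesion and rolling of progenitors.

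Promoter sequences are shown for the 5 genes that the comparisons below turn on: Cxcr4, Cd44 and Cx3cr1, which were lower in CD34-positive cells in every pairing, and Ccr1 and Ccr2, which with Cx3cr1 peaked in the same CD34-negative library. Each run is the 250 bases before the gene's start, 5′ to 3′ on the gene's strand, from RefSeq (GRCm38.p6). Capitals mark matches, on either strand, to a GATA core (AGATAA), a Runx core (TGTGGT), an ETS core (GAGGAA) or a GC box (GGGCGG), none of which overlapped here. The runs lie at chr1:128592300-128592549 (minus strand) for Cxcr4, chr2:102901666-102901915 (minus) for Cd44, chr9:120068297-120068546 (minus) for Cx3cr1, chr9:123968693-123968942 (minus) for Ccr1 and chr9:124101933-124102182 (plus) for Ccr2.
Cxcr4: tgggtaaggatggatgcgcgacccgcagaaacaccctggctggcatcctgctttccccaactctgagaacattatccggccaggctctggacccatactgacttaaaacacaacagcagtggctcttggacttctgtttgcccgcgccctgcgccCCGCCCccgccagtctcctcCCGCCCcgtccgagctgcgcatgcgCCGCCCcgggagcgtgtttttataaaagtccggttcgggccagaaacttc
Cd44: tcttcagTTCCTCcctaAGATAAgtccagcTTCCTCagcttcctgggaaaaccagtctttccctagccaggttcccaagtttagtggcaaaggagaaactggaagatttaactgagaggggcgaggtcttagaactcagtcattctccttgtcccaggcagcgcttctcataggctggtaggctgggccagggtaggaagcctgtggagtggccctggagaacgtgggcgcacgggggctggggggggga
Cx3cr1: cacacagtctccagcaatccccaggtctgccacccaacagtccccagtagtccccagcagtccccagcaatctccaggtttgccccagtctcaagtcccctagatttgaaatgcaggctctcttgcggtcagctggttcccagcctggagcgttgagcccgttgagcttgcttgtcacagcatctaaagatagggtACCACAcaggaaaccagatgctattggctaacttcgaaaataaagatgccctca
Ccr1: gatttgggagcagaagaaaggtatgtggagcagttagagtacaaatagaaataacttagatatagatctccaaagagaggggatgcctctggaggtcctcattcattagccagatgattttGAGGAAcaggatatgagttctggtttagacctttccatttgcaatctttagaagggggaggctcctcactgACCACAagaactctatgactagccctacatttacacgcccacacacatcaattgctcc
Ccr2: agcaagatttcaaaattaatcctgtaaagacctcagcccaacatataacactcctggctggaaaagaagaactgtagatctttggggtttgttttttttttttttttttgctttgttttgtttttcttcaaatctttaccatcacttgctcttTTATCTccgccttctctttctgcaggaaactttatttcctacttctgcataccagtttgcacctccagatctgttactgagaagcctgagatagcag

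The Cxcr4 run stood apart in base composition, with 61.2% G or C, 19 CpG dinucleotides and 3 GC-box matches. Over 32851 RefSeq promoter windows of the same length, the median was 52.4% and 6 CpG, and 32.7% held a GC box. Ccr2 had 37.2% and 1 CpG, with 1 GATA match, which 3281 windows hold. Ccr1 had 43.6% and 1 CpG with 1 Runx and 1 ETS match, and Cx3cr1 had 53.6% and 4 CpG with 1 Runx match. A Runx match was found in 4614 windows and an ETS match in 7639 (23.3%). Cd44 had 56.4% and 5 CpG, with 2 ETS matches and 1 GATA match. A match describes letters only. 7 of the 8 genes had an entry in the promoter table, and S1pr1 had none.

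CD34-positive libraries had lower values of Cxcr4, Cd44 and Cx3cr1 than the CD34-negative library of equal number in all 4 pairings, and higher values of Ccr9 and Cxcr2, although the last 2 were at 0.49 FPKM or less throughout. Ccr1, Ccr2 and S1pr1 went in both directions. Among the 9259 genes that reached 1 FPKM in 3 or more libraries, the set that was tested, 18.9% were lower and 21.4% higher in all 4 pairings. Cxcr4, Ccr1, Ccr2 and Cd44 passed that minimum, and 2 of these 4 were lower in all 4 pairings and 0 higher. Of the 3962 genes detected below the minimum, 7.5% were lower and 9.39% higher in all 4 pairings. Cx3cr1, Cxcr2, S1pr1 and Ccr9 belong to them, and 1 of these 4 was lower and 2 were higher. These counts are a description of 8 chosen genes.

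In limma on log2(FPKM + 1), a scale on which changes of low genes come out smaller than their ratios, 0 of the 4 tested receptors passed an adjusted p of 0.05, and 0% of all tested genes did in either direction. At an unadjusted p under 0.05 the count was also 0 of 4, against 3.38% of tested genes higher and 2.27% lower. With the number as a block, 1 of 4 (Cd44, lower) was under 0.05 unadjusted, against 12.8% of genes higher and 9.14% lower. The median log2 difference, CD34-positive minus CD34-negative, was -0.44 over the 4 and 0.09 over all tested genes.

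**Figure D1:**
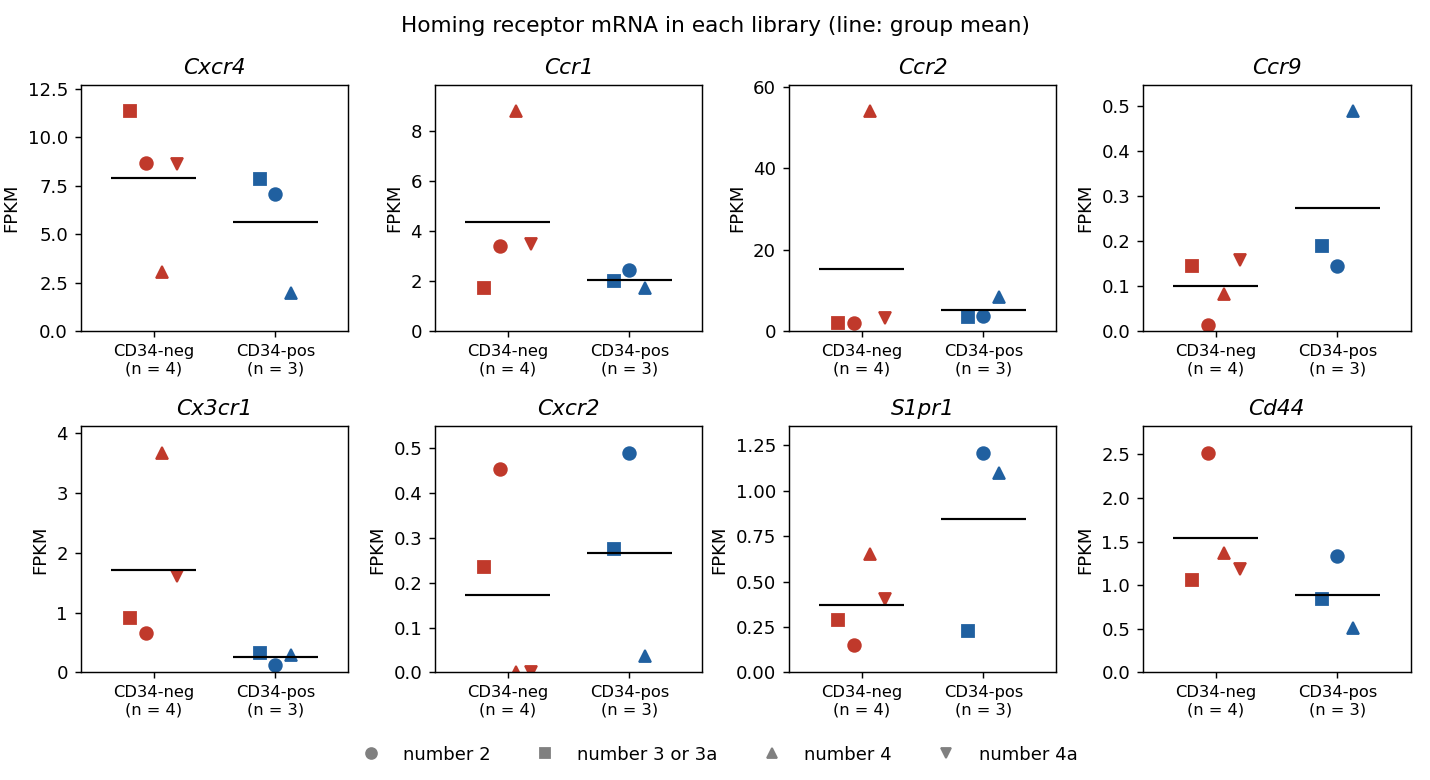
FPKM of the 8 receptor genes in each library, with CD34-negative libraries (n = 4) in red, CD34-positive libraries (n = 3) in blue, symbols for the description number and a line at each group's mean; each panel has its own axis from 0. The groups are apart only for Cx3cr1, and 1 CD34-negative library (number 4) stands at 54.0 FPKM for Ccr2.

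Cxcr4, the Cxcl12 receptor, was above 1 FPKM in all 7 libraries, as were Ccr1 and Ccr2. It was at 11.3, 8.67, 3.05 and 8.59 FPKM in CD34-negative replicates 1 to 4 and at 7.83, 7.05 and 1.96 FPKM in CD34-positive replicates 1 to 3. The groups overlapped, and the lowest library of each group carried number 4. Within numbers 3, 2 and 4 the CD34-negative value was 1.45, 1.23 and 1.56 times the CD34-positive one, and 4.39 times for number 4a. Means were 7.91 ± 3.48 FPKM (SD, n = 4) and 5.61 ± 3.19 FPKM (SD, n = 3), a log2 difference of -0.47 (SE 0.51, adjusted p = 1 in limma). With the number as a block it was -0.65 (SE 0.33, adjusted p = 0.297 in limma). Without CD34-positive replicate 3 the difference without a block was 0.031.

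Cd44, the hyaluronan receptor, was low in this line. It was at 1.07, 2.52, 1.37 and 1.19 FPKM in CD34-negative replicates 1 to 4 and at 0.839, 1.33 and 0.504 FPKM in CD34-positive replicates 1 to 3. CD34-positive replicate 2 lay among the negative libraries, so the groups overlapped, yet each positive library was below its partner. The ratio of negative to positive was 1.27, 1.89, 2.72 and 2.36 in numbers 3, 2, 4 and 4a. The log2 difference was -0.41 (SE 0.29, adjusted p = 1 in limma), and -0.47 (SE 0.16, adjusted p = 0.153 in limma) with the number as a block. At these levels Cd44 exceeded 52.6% to 62.7% of all symbols in a library, and Cxcr4 57.9% to 73.8%.

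Cx3cr1, the receptor for the membrane-bound chemokine Cx3cl1 and a gene of monocytes, was the one receptor whose groups did not overlap. It was at 0.903, 0.66, 3.68 and 1.61 FPKM in CD34-negative replicates 1 to 4 and at 0.331, 0.128 and 0.293 FPKM in CD34-positive replicates 1 to 3. Every negative library was above every positive one. Of genes below the minimum, 2.8% had groups without overlap in the lower and 3.03% in the higher direction, and of tested genes 3.01% and 2.67%. No other receptor was among them. The negative value was 2.73, 5.17, 12.55 and 5.5 times the positive one in numbers 3, 2, 4 and 4a. On the log2 scale the difference was -0.999, with an exact two-sided permutation p of 0.0571. The 9 markers of monocytes and macrophages summed to 6.16 to 30.4 FPKM in CD34-negative and to 28.5 to 43.7 FPKM in CD34-positive libraries. Most of each sum was Lyz2 and Cd68, and these markers did not move together. Cd68 (12.3 FPKM) and Emr1 (0.23 FPKM) were highest in CD34-negative replicate 3, where Cx3cr1 peaked. Cd68 was nearly as high in CD34-positive replicates 2 and 3 (11.1 FPKM in replicate 3), where Cx3cr1 was at 0.128 and 0.293 FPKM. Lyz2, Csf1r, Ly6c2 and Fcgr1 were higher in CD34-positive cells in all 4 pairings. Of these, Lyz2 (0.826 FPKM) and Fcgr1 (0.053 FPKM) were lowest in CD34-negative replicate 3. Ly6c2 was listed at 0 in CD34-negative replicates 2 and 3. Cd14 and C1qa were listed at 0 in every library. The part of these markers in the Cx3cr1 values was not tested.

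**Figure D2:**
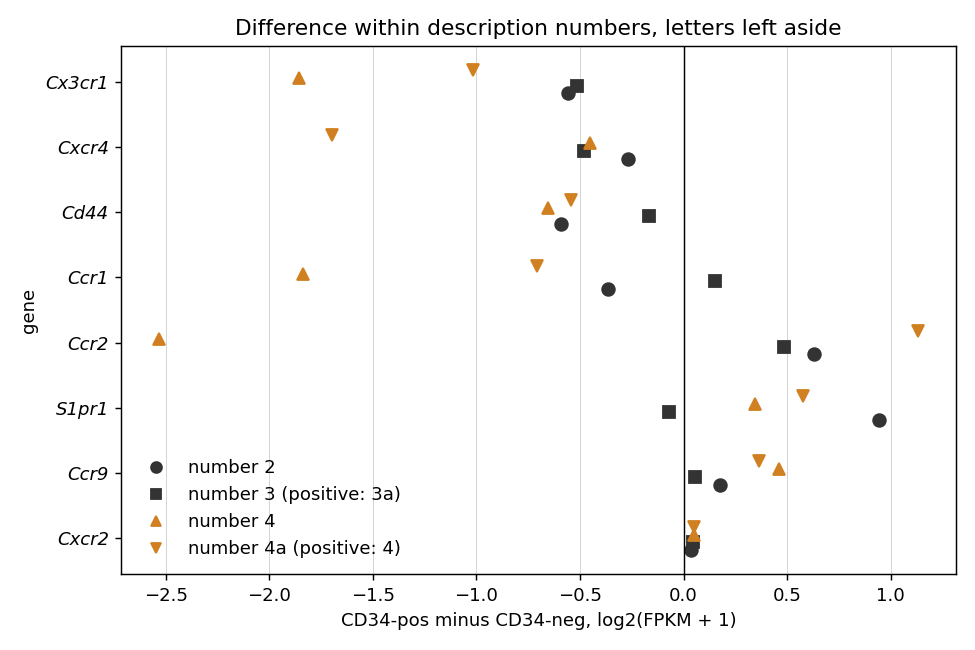
Difference of log2(FPKM + 1), CD34-positive minus CD34-negative, within each description number for the 8 receptors; numbers 4 and 4a (orange) share 1 CD34-positive library. Cx3cr1, Cxcr4 and Cd44 lie left of 0 in all 4 pairings, Ccr9 and Cxcr2 right of it, and Ccr2 runs from -2.53 to 1.13.

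Ccr2, the receptor for Ccl2 and Ccl7 that brings monocytes out of the marrow, had 1 library far above the rest. It was at 2.13, 2.08, 54.0 and 3.35 FPKM in CD34-negative replicates 1 to 4 and at 3.39, 3.76 and 8.51 FPKM in CD34-positive replicates 1 to 3. CD34-negative replicate 3 was thus 6.34 times its CD34-positive partner, whereas in numbers 3, 2 and 4a the positive library was 1.59, 1.81 and 2.54 times the negative one. The log2 difference was -0.25 (SE 0.96, adjusted p = 1 in limma), 0.054 with the number as a block, and 0.75 without CD34-negative replicate 3 (adjusted p = 1 in limma without a block and 0.0632 with it). In that library Ccr2 exceeded 95.6% of all symbols, against 58.0% to 72.9% elsewhere.

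Ccr1, a receptor for Ccl3, Ccl5 and Ccl9 on myeloid cells, also peaked in that library. It was at 1.72, 3.42, 8.81 and 3.49 FPKM in CD34-negative replicates 1 to 4 and at 2.03, 2.44 and 1.75 FPKM in CD34-positive replicates 1 to 3. Positive libraries lay close together at the low end of the negative range. The means were 4.36 ± 3.08 FPKM (SD, n = 4) and 2.07 ± 0.346 FPKM (SD, n = 3), a log2 difference of -0.65 (SE 0.42, adjusted p = 1 in limma). It was lower in 3 pairings and higher in number 3.

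CD34-negative replicate 3 also had the highest values of the mast cell protease gene Cma1, the basophil protease gene Mcpt8 and the IgE receptor genes Ms4a2 and Fcer1a. The 9 markers of eosinophils, basophils and mast cells, which the line itself partly expresses, summed to 5696 FPKM there, to 785, 1724 and 1004 FPKM in CD34-negative replicates 1, 2 and 4, and to 219 to 309 FPKM in CD34-positive libraries. Cma1 alone was at 4886 FPKM in CD34-negative replicate 3 and made up most of that sum. Mcpt8 was at 736.8 FPKM in CD34-negative replicate 3 and at 40.8 to 196.3 FPKM in the other 6. The list did not move together. Siglec5 was highest in CD34-negative replicate 4 and Il5ra in CD34-positive replicate 3, and the eosinophil genes Epx and Prg2 were listed at 0 in CD34-negative replicate 3. The part of these genes in the Ccr1, Ccr2 and Cx3cr1 values was not tested. Monocyte markers summed to 13.6 FPKM in this library, of which 12.3 FPKM was Cd68. Cd68 had its highest value here, by a small margin over CD34-positive replicate 2.

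Ccr1 and Ccr2 lie in a chemokine receptor cluster on chromosome 9, and the other genes of the stretch were looked up after their values were seen. From Ccr9 to Ccr2 the RefSeq annotation (GRCm38.p6) has 8 protein-coding genes, in the order Ccr9, Fyco1, Cxcr6, Xcr1, Ccr1, Ccr1l1, Ccr3 and Ccr2. Of these 8, 4 had their highest value in CD34-negative replicate 3. They were Ccr1 and Ccr2, already seen to peak there, with Ccr1l1 and Ccr3. Of tested genes 11.9% peak in that library. Ccr1l1 and Ccr3 are not among the tested genes, and no share was taken for genes below the minimum. Ccr1l1 was at 0.356 FPKM there and at 0.305 FPKM in CD34-positive replicate 1, a small margin at a low level. Ccr3, the eotaxin receptor, was at 0.538 FPKM in CD34-negative replicate 3 and at 0.094 FPKM or less elsewhere. The first 4 genes did not peak there, with Ccr9 highest in CD34-positive replicate 3 and Fyco1, Cxcr6 and Xcr1 in other libraries. Ccr1 and Ccr1l1 are related copies, and how shared reads were assigned is not given in the sources used here.

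**Figure D3:**
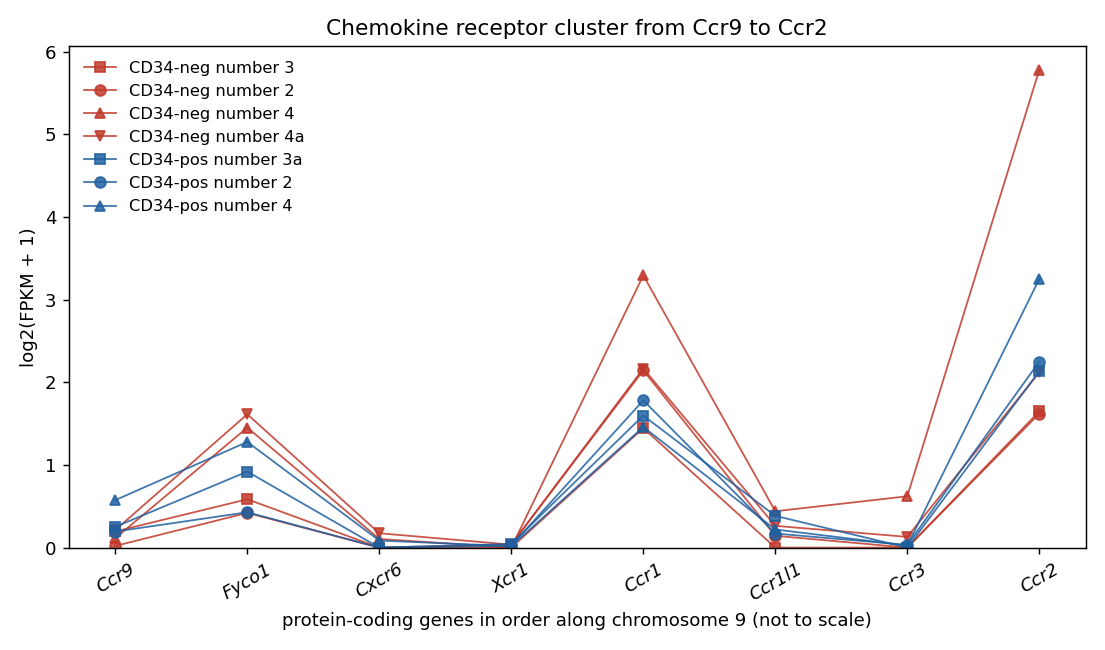
Log2(FPKM + 1) of the 8 protein-coding genes from Ccr9 to Ccr2 in their order along chromosome 9 (spacing not to scale), 1 line per library, CD34-negative in red and CD34-positive in blue. CD34-negative number 4 is highest from Ccr1 to Ccr2, by a small margin for Ccr1l1, and not from Ccr9 to Xcr1.

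S1pr1, the S1P receptor for egress, was at 0.289, 0.149, 0.652 and 0.407 FPKM in CD34-negative replicates 1 to 4 and at 0.23, 1.21 and 1.097 FPKM in CD34-positive replicates 1 to 3. CD34-positive replicates 2 and 3 were above all negative libraries, and CD34-positive replicate 1 was below 3 of them. The log2 difference was 0.39 (exact two-sided permutation p = 0.229). Ccr9, the receptor for Ccl25 that guides progenitors to the thymus, was at 0.145, 0.014, 0.082 and 0.158 FPKM in CD34-negative and at 0.19, 0.144 and 0.489 FPKM in CD34-positive replicates in order (log2 difference 0.20, exact two-sided permutation p = 0.0857). The groups overlapped through CD34-positive replicate 2.

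Cxcr2, the neutrophil receptor for Cxcl1 and Cxcl2, was listed at 0 in CD34-negative replicates 3 and 4 and stood at 0.036 FPKM in CD34-positive replicate 3. In replicates 1 and 2 it was at 0.236 and 0.453 FPKM in CD34-negative and at 0.275 and 0.49 FPKM in CD34-positive cells. All 3 libraries numbered 4 or 4a were thus below the other 4, in either group (log2 difference 0.11, exact two-sided permutation p = 0.486, and -0.010 without CD34-positive replicate 2). Of 8 neutrophil markers in the table, S100a8, S100a9, Camp and Retnlg were listed at 0 in every library, and the 8 summed to at most 0.317 FPKM. The libraries numbered 4 and 4a did not separate from the other 4 in any other receptor gene but Cxcr2.

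By group mean in FPKM, a per-length scale, the order in CD34-negative cells was Ccr2 (15.4 ± 25.7, SD, n = 4), Cxcr4, Ccr1, Cx3cr1 (1.71 ± 1.37), Cd44 (1.54 ± 0.668), S1pr1 (0.375 ± 0.213), Cxcr2 and Ccr9 (0.0996 ± 0.0662). In CD34-positive cells it was Cxcr4, Ccr2 (5.22 ± 2.86, SD, n = 3), Ccr1, Cd44 (0.892 ± 0.417), S1pr1 (0.846 ± 0.537), Ccr9 (0.274 ± 0.187), Cxcr2 (0.267 ± 0.227) and Cx3cr1 (0.250 ± 0.108). Neighbours differed by less than their spread in several places. These include the top of both orders (Ccr2 and Cxcr4), Cx3cr1 and Cd44 in negative cells, and Cd44 and S1pr1 in positive cells. They also include the last 3 positive genes, whereas Ccr1 and Cd44 did not overlap in CD34-positive libraries. The order in CD34-negative cells rests on replicate 3. Without it the means were 9.53 FPKM for Cxcr4, 2.88 for Ccr1, 2.52 for Ccr2, 1.59 for Cd44 and 1.06 for Cx3cr1, so Ccr2 came after Ccr1, and Cx3cr1 after Cd44. Cx3cr1 was below Cd44 in replicates 1 and 2 and above it in replicates 3 and 4.

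Other chemokine receptors were mostly near 0. Of 13 in the list, 3 were tested and 0 passed in limma. Cxcr3, a receptor for interferon-induced chemokines, had the smallest p. It was at 3.60, 0.757, 0.272 and 0.23 FPKM in CD34-negative replicates 1 to 4 and at 4.01, 7.07 and 2.61 FPKM in CD34-positive replicates 1 to 3. It was higher in all 4 pairings, with a log2 difference of 1.48 (SE 0.51, adjusted p = 0.686 in limma). Ccr7, which guides cells to lymph nodes, averaged 1.106 and 1.098 FPKM. Ccrl2, a non-signalling relative, was the 1 atypical receptor of 5 matched in the table, and averaged 2.32 ± 1.36 FPKM (SD, n = 4) in CD34-negative and 0.892 ± 0.166 FPKM (SD, n = 3) in CD34-positive cells, with no overlap and an adjusted p of 0.88 in limma. Here and for the related genes below, the share of tested genes without overlap was 2.67% in the higher and 3.01% in the lower direction. Cxcr1 and Ccr10 were listed at 0 in every library.

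Ligands of the receptors were measured in the same cells. Cxcl12, Ccl12, Cxcl1 and Cxcl5 were listed at 0 in every library. Of 15 ligands 5 were tested and 0 passed in limma, with a median log2 difference of 0.57. Ccl9, a ligand of Ccr1, was at 11.7, 0.982, 1.18 and 2.18 FPKM in CD34-negative replicates 1 to 4 and at 24.8, 8.03 and 22.2 FPKM in CD34-positive replicates 1 to 3. It was higher in all 4 pairings (log2 difference 2.27, SE 0.68, adjusted p = 0.647 in limma). Ccl5, another ligand of Ccr1, averaged 0.638 ± 0.674 FPKM (SD, n = 4) and 2.71 ± 0.947 FPKM (SD, n = 3) without overlap (adjusted p = 0.647 in limma), and Cxcl2, a ligand of Cxcr2, averaged 2.66 and 1.18 FPKM.

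Several genes of S1P handling stood far above S1pr1. S1pr2 ranged from 3.64 to 31.3 FPKM and S1pr4, the receptor of blood cells, from 4.44 to 24.7 FPKM, while S1pr5 did not exceed 0.016 FPKM. Of 11 such genes 9 were tested, 0 passed in limma, and the median log2 difference was 0.095. In all 4 pairings 2 were higher and 4 lower, against 21.4% and 18.9% of all tested genes. Mfsd2b, the S1P exporter of red cells and platelets, was at 34.7, 50.8, 17.0 and 62.2 FPKM in CD34-negative replicates 1 to 4 and at 15.9, 5.13 and 7.35 FPKM in CD34-positive replicates 1 to 3. Its groups did not overlap (log2 difference -2.0005, SE 0.52, adjusted p = 0.613 in limma). Sphk1, a kinase that makes S1P, averaged 1.85 ± 1.45 FPKM (SD, n = 4) in CD34-negative cells and was at 0.192, 0 and 0.039 FPKM in CD34-positive replicates 1 to 3, also without overlap (adjusted p = 0.647 in limma). Sgpp1, a phosphatase that removes S1P, was higher at 2.48 ± 0.390 FPKM (SD, n = 3) where CD34-negative cells had 1.095 ± 0.720 FPKM (SD, n = 4), with adjusted p = 0.847 in limma. The 7 erythroid markers summed to 281, 2087, 146 and 734 FPKM in CD34-negative replicates 1 to 4 and to 57.4, 649.5 and 143.7 FPKM in CD34-positive replicates 1 to 3, and their part in the values was not tested.

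Receptors for other lipids and for nucleotides included genes that were higher and genes that were lower in CD34-positive cells in every pairing. Of 19 lipid receptors 18 were in the table and 9 tested, 0 passed in limma, and the median log2 difference was 0.31. In all 4 pairings 4 were higher and 2 lower, against 21.4% and 18.9% of all tested genes. Those lower were Ltb4r1 (log2 difference -0.62) and Gpr183 (-0.82). Lpar6 and Lpar5, receptors for lysophosphatidic acid, averaged 2.35 and 6.13 FPKM in CD34-negative and 6.19 and 11.8 FPKM in CD34-positive cells. Gpr132 averaged 2.65 and 5.58 FPKM. P2ry14, a receptor for UDP-glucose that marks haematopoietic progenitors, was the 1 tested gene of 8 peptide and nucleotide receptors. It averaged 4.33 ± 1.26 FPKM (SD, n = 4) and 10.7 ± 2.82 FPKM (SD, n = 3) without overlap (log2 difference 1.13, SE 0.31, adjusted p = 0.647 in limma).

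Signalling genes downstream of the receptors were abundant in both groups. Gnai2, the main inhibitory G protein of blood cells, ranged from 132.6 to 539.9 FPKM, and Rac2, a GTPase of cell movement, from 117.8 to 242.3 FPKM. Of 28 genes 25 were tested and 0 passed in limma, with a median log2 difference of 0.16. In all 4 pairings 7 were higher and 4 lower, against 21.4% and 18.9% of all tested genes. Arrb1, an arrestin that uncouples receptors, averaged 25.7 ± 11.7 FPKM (SD, n = 4) in CD34-negative and 10.8 ± 1.15 FPKM (SD, n = 3) in CD34-positive cells, and Gng2, a G protein subunit, 3.26 ± 1.45 and 7.20 ± 1.096 FPKM. Neither pair of groups overlapped, and both had an adjusted p of 0.686 in limma. Of all tested genes 2.67% had groups without overlap in the higher and 3.01% in the lower direction. Rgs19, which shortens G protein signals, averaged 41.1 and 69.7 FPKM (adjusted p = 0.979 in limma).

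Several partners of Cd44 and other rolling receptors were far more abundant than Cd44. The moesin gene Msn, whose protein links Cd44 to actin, ranged from 68.4 to 294.4 FPKM, and Selplg, the selectin ligand PSGL-1, from 20.04 to 56.6 FPKM. Of 23 genes 14 were tested, 0 passed in limma, and the median log2 difference was 0.17. In all 4 pairings 4 were higher and 2 lower, against 21.4% and 18.9% of all tested genes. Cd74, which forms a receptor with Cd44, averaged 2.61 ± 1.40 FPKM (SD, n = 4) and 6.54 ± 2.90 FPKM (SD, n = 3) without overlap, thus in the other direction from Cd44 (adjusted p = 0.763 in limma). Glg1, an E-selectin ligand, averaged 14.6 and 28.3 FPKM, and Fut7, which makes selectin-binding sugars, 17.7 and 28.6 FPKM. Hyaluronan synthases Has1, Has2 and Has3 did not exceed 0.252 FPKM.

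Regulators of homing receptors gave 5 tested genes of 7, of which 0 passed in limma, with a median log2 difference of 0.34. In all 4 pairings 2 were higher, against 21.4% of all tested genes. Socs3, an inhibitor of cytokine signals that also dampens Cxcr4 signalling, was at 18.7, 0.872, 2.62 and 1.28 FPKM in CD34-negative replicates 1 to 4 and at 28.7, 5.14 and 30.8 FPKM in CD34-positive replicates 1 to 3. Its log2 difference was 2.10 (SE 0.89, adjusted p = 0.853 in limma). Foxo1, a transcription factor upstream of S1pr1 and Klf2 in lymphocytes, averaged 3.15 ± 1.16 FPKM (SD, n = 4) and 5.35 ± 0.732 FPKM (SD, n = 3) without overlap (adjusted p = 0.901 in limma), and Foxo3 averaged 13.2 and 8.35 FPKM. Cd69, which removes S1pr1 from the cell surface, was at 226.2 FPKM in CD34-negative and 188.3 FPKM in CD34-positive replicate 3, and at 6.01 to 44.7 FPKM in the other 5.

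**Figure D4:**
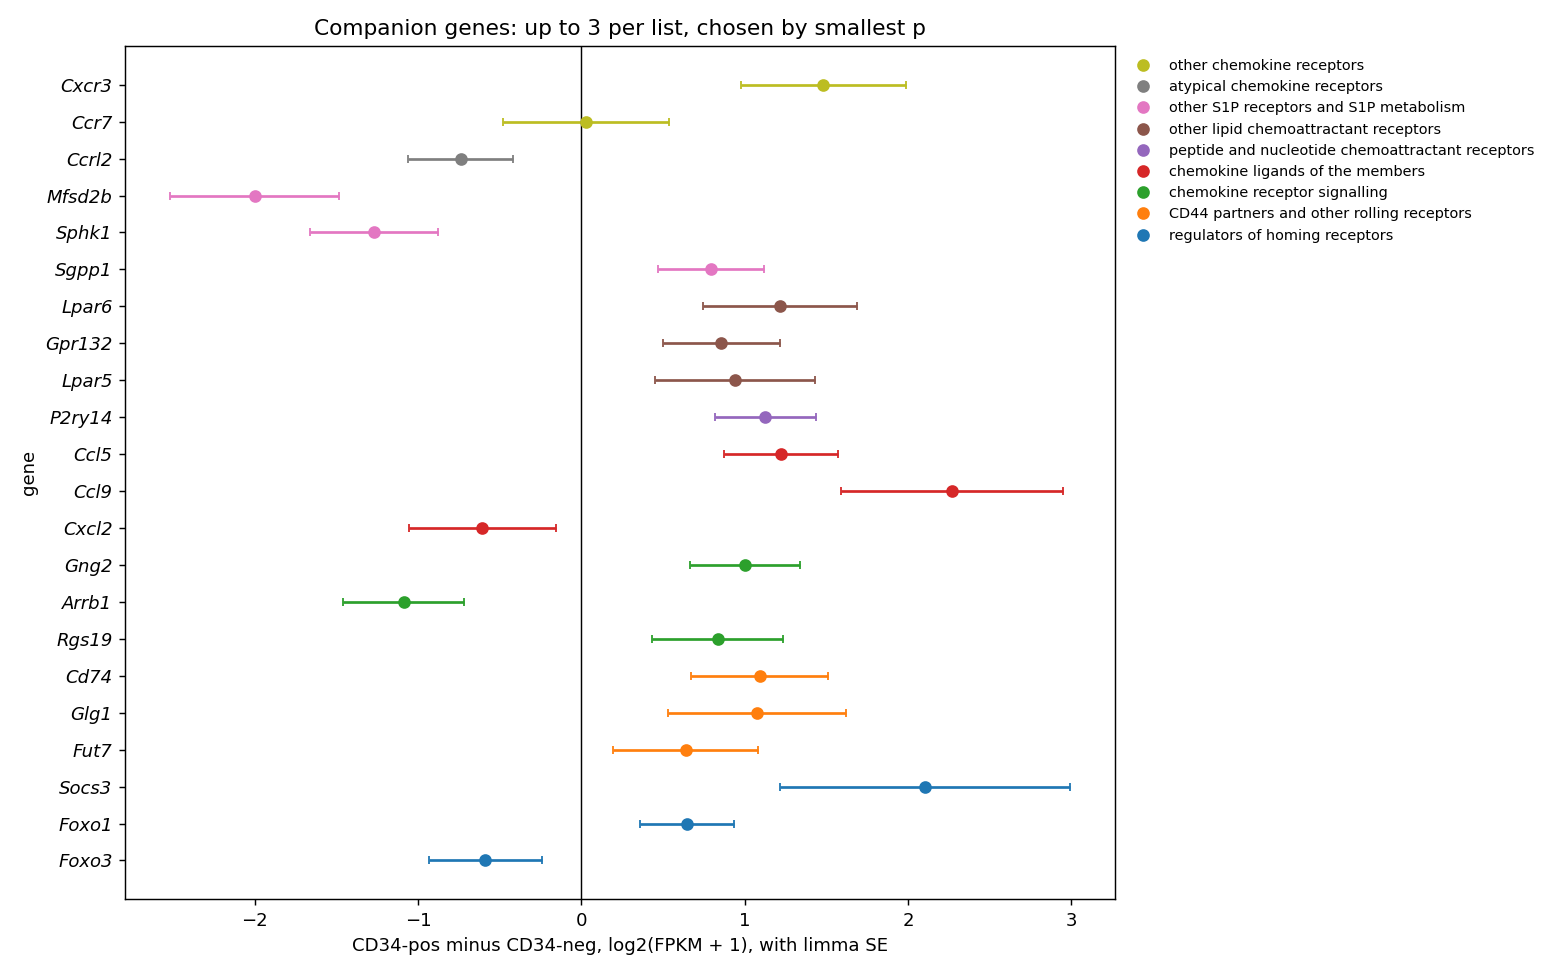
Log2 difference, CD34-positive minus CD34-negative, with its moderated standard error from limma, for up to 3 genes chosen by the smallest p from each of 9 lists of related genes. Ccl9, Socs3 and Cxcr3 lie farthest right at 2.27, 2.10 and 1.48 and Mfsd2b farthest left at -2.0005, and none passed.

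Genes with the most similar pattern were taken by Pearson's r of log2(FPKM + 1) over the 7 libraries, among 9258 genes. The 3 libraries numbered 4 and 4a differ from the other 4 in ribosomal protein and small RNA content, and this was left in the values. For Cxcr4 they were Prmt3 (0.983), Ndrg3 (0.966) and Macrod1 (0.95), and for Cd44 they were Oaf (0.989), Prpsap1 (0.988) and Limk2 (0.987). Ccr2 was closest to Cobl (0.975), Sema4c (0.974) and Capn2 (0.967), each with its highest value in CD34-negative replicate 3. Ccr1 was close to Plxdc2 (0.959) and Eno2 (0.953), also highest in that library. The values are the largest of many and describe likeness over few libraries only.

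The line's own markers were present in all libraries. The 10 progenitor markers, which include Kit, Tal1, Runx1 and the sort gene Cd34, summed to 586 to 1300 FPKM in CD34-negative and to 1073 to 1314 FPKM in CD34-positive libraries. The sums hide differences in both directions. In all 4 pairings 6 of the 10 were higher, among them Cd34 and Ly6a, and 2 lower, among them Gata2. The shares of all tested genes were 21.4% and 18.9%. Markers of T and NK cells summed to at most 2.75 FPKM with Cd3e, Cd8a and Ncr1 listed at 0, those of B cells to at most 2.16 FPKM with Ms4a1 and Pax5 at 0, and those of dendritic cells to at most 4.35 FPKM with Siglech and H2-Ab1 at 0. Megakaryocyte markers summed to 261 to 907 FPKM in CD34-negative and 233 to 763 FPKM in CD34-positive libraries. The stromal and endothelial list summed to 53.0 to 134 FPKM and 97.3 to 159.9 FPKM, from Pecam1 and Pdgfrb in the main, while Pdgfra, Kdr and Tek were at 0.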

How the data were processed

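The authors deposited 1 table of FPKM values, a row per gene symbol and a column per library. Its unit was inferred from the values and from the named tools, since the header gives none. The submitters' processing notes name Cuffdiff, TopHat and TopHat2 beside the builds mm9 and mm10. Versions, annotation and strand are not stated there, and no coordinates were taken from the table. Of 20464 rows, 322 rows of 105 repeated symbols were left out. Fragment counts are unknown, so there are no counting intervals. Ratios of values under 0.15 FPKM cluster at 0.57 in the number 3 pair, 1.24 in number 4 and 0.69 in number 4a (negative over positive), which would be relative weights of 1 fragment, and no sharp ratio was found in number 2.

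The 9259 genes reaching 1 FPKM in 3 or more libraries were fitted with limma 3.58.1 (R 4.3.3) on log2(FPKM + 1), with a mean-variance trend, two-sided and Benjamini-Hochberg adjusted over all of them. Receptor genes below the minimum got an exact permutation test over libraries, with p values left unadjusted. The fit was run on simulated data with independent noise and planted differences, as a check of the code. That simulation had no structure by description number, so it does not show how the fit behaves on these libraries. Deviations from group means correlated at 0.7 (number 3), 0.92 (number 2), 0.82 (number 4) and 0.85 (number 4a) between equal numbers, so equal description numbers, letters left aside, were treated as pairs, and the number entered as a block in an alternative fit. Between numbers 2 and 3, which are of the same kind of library, the correlations were 0.37 and 0.22. Between these and numbers 4 and 4a they were -0.86 to -0.42, so the correlations also follow the kind of library. Other alternatives were pseudocount, filter, scaling, variance model and leaving out each library.

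The receptors and lists were chosen with earlier results of these data known. Genes named from the related lists are up to 3 tested ones with the smallest p in each, and the 3 most similar genes per tested receptor. Some genes that these rules take are not reported here. Other genes named were chosen after their values were seen. Choice by smallest p favours groups without overlap, so that trait is no separate support for a named gene. Old symbols were matched through RefSeq synonyms.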

Additional observations from a re-analysis of the deposited data

Results flagged for a closer look

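In the 4 CD34-negative libraries, 1 library lay far from the other 3 for Ccr2, where the gap to the nearest library was 0.88 of the group's range on the log2 scale. That library was CD34-negative replicate 3, at 54.0 FPKM. Sema4c (0.931, at 43.7 FPKM) and Capn2 (0.914, at 49.3 FPKM) were far from the rest in the same library, and both were named because their pattern resembles that of Ccr2. These are 3 of 44 named genes, and 5.95% of all tested genes were flagged in the same way, where chance flags about 1 in 20. The CD34-positive group, with 3 libraries, was not examined in this way.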

How the results depend on the processing

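No receptor passed an adjusted p of 0.05 in limma under any of the alternatives run. Ccr1, Cx3cr1, S1pr1, Cd44 and Ccr9 kept their direction in all alternatives that gave a value, with log2 differences of -0.92 to -0.11, -2.14 to -0.54, 0.23 to 0.87, -0.73 to -0.24 and 0.09 to 0.87. Cxcr4 ran from -0.82 to 0.031, turning only without CD34-positive replicate 3, and Cxcr2 from -0.010 to 0.58 (to 0.25 when 1 library was left out), turning only without CD34-positive replicate 2. Ccr2 ranged from -0.64 to 0.75 when 1 library was left out. It was 0.054 with the replicate block by description number (adjusted p = 0.977 in limma), 0.14 when CD34-negative replicates 3 and 4 were averaged into 1 sample, 0.75 with CD34-negative replicate 3 left out (block or not), and 0.56 with the block when CD34-positive replicate 3 was left out. For Ccr9 the exact permutation p was 0.0286 with quantile normalization, on a difference of 0.20. That is the smallest p that 35 arrangements of the libraries can give, and it is unadjusted. No scaling turned a receptor's direction. The median of all tested genes was 0.09, and -0.03 when FPKM were rescaled without ribosomal protein, microRNA and small nucleolar RNA genes, an alternative added once the data were seen.

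The count of genes called over the whole table was 0 and 0 in limma (unadjusted p under 0.05: 313 higher, 210 lower), also with the replicate block by description number (1188 and 846 unadjusted). It was 7 higher and 3 lower without CD34-negative replicate 1. With the block it ranged from 0 to 231 higher and from 0 to 125 lower when 1 library was left out: 231 and 81 without the first CD34-negative library, 230 and 81 without the first CD34-positive one, 32 and 125 without CD34-negative replicate 3, and 1 and 0 without the third CD34-positive one. Without both number 3 libraries, also chosen after seeing the data, it was 233 and 81 with the block and 0 and 0 without. With the block, a library without its partner does not bear on the group difference. Leaving out either number 3 library or both thus gave the same estimates, and those counts are not separate results. The cause of the changed counts was not tested. The block changed no call among the receptors tested in limma. For Ccr9, Cx3cr1, Cxcr2 and S1pr1 it left 12 arrangements, so the exact permutation p could not go below 0.0833 and no call was possible. Settings that change only the variance model or require 5 FPKM give no value for receptors below the minimum.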
